A study of Mus musculus with 4 samples.

Results

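Accessible chromatin at 6 genes of the STAT family (Stat2, Stat3, Stat4, Stat5a, Stat5b and Stat6) was described in mouse bone marrow-derived macrophages, wild type (WT) or lacking Ezh2 (KO). The members are these named genes, taken from 21900 protein-coding genes, and their regions. The peaks of all 4 libraries were merged wherever they shared 1 bp, which gave 91858 regions on mm10. A region belonged to a STAT gene when that gene was its nearest protein-coding gene and lay at most 50 kb away, which held for 31 regions. Of these, 28 lay inside a gene and 3 outside, the farthest 22245 bp away. Around each gene, 7 to 14 regions within 50 kb lay nearer to, or inside, another gene and were not assigned to it, and in the chromosome 11 cluster that other gene could be another STAT gene.

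The assay was ATAC-seq, which marks DNA that a transposase can reach, and the groups were 2 WT and 2 KO libraries. KO macrophages came from Ezh2fl/fl;LysM-Cre+/- mice, in which Cre is made from the myeloid Lyz2 locus and removes floxed Ezh2 in cells of that lineage. WT macrophages came from littermates, whose floxed and Cre alleles are not given further, and neither age nor sex is given. Marrow was grown for 7 to 10 days with L929 cell medium, and both genotypes were then kept for 24 hours in conditioned medium of the mouse liver cancer cells Hepa1-6, so no value below compares exposed with unexposed cells. Ezh2 is the enzyme of Polycomb repressive complex 2 that methylates histone H3 at lysine 27. Whether the replicates are separate mice or separate cultures is not stated, and every SD below measures only the spread between libraries.

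The lists held 67055 to 72887 peaks, and the files give no read counts, so the sequencing depth is unknown and a missing peak is not shown to be closed chromatin. All 8 macrophage markers examined, including Spi1, Csf1r and Adgre1, had a region called in all 4 libraries within 1 kb of a gene end. Of 13 markers of other cell types, 3 did (Cd79a, Cd4 and Col1a1). The share over all genes was not computed for this rule, which also counts regions nearer to another gene, as at Cd79a. By listed starts, all 4 libraries called 5 of 5 macrophage markers and 0 of 10 others, against 51.6% of protein-coding genes with a listed start. Ezh2 itself still had a start region in every library, at percentiles 71.4 and 67.9 in WT against 80.2 and 73.9 in KO. Near the other end of Ezh2, the region chr6:47532495-47532897 stood at 73.7 and 92.7 in WT against 24.9 and 23.4 in KO. The exons under it were not analysed here, so how completely the gene was deleted in these cultures was not tested.

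STAT proteins are transcription factors that wait in the cytoplasm until a cytokine receptor is engaged. Janus kinases (JAKs) bound to the receptor then phosphorylate them on a tyrosine, 2 STAT molecules pair through their SH2 domains, and the dimer enters the nucleus and binds a short palindrome called the GAS element. Stat2 is the exception in its partners, since it acts in type I interferon signalling with Irf9 at a different element, the ISRE. In macrophages, Stat3 carries signals of interleukin-10 and interleukin-6, Stat5a and Stat5b those of GM-CSF, and Stat6 those of interleukin-4 and interleukin-13, the cytokines of alternative (M2) activation. Stat4 serves interleukin-12 and is best known from T and NK cells.

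RefSeq's promoter table (GRCm38.p6, the assembly behind mm10) lists 9 transcription starts for these genes, each with 300 bases of sequence, and all 6 genes matched it. The 4 promoters below are shown because they carry the contrasts described next. These are an open and an uncalled promoter that each match the same ISRE pattern with different letters, and the paired promoters of Stat5a and Stat5b. Bases are given 5′ to 3′ on the transcribed strand. In the Stat2 and Stat4 lines, capitals mark letters that match a searched motif. In the Stat5a and Stat5b lines, they mark the stretch over which both promoters align.

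Stat2 promoter (chr10:128270248-128270547, plus strand): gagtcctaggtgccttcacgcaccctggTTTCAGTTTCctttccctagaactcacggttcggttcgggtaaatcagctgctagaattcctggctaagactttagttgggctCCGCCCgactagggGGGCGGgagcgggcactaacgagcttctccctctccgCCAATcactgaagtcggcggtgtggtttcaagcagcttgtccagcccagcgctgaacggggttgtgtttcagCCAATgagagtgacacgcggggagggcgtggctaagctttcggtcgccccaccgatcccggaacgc

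Stat4 internal promoter (chr1:52007990-52008289, plus strand): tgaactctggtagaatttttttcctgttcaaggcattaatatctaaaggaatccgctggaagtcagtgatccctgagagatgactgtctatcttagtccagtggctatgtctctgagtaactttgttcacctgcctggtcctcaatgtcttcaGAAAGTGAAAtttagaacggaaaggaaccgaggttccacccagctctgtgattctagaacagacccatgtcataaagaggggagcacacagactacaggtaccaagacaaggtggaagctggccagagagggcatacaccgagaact

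Stat5a promoter (chr11:100860234-100860533, plus strand): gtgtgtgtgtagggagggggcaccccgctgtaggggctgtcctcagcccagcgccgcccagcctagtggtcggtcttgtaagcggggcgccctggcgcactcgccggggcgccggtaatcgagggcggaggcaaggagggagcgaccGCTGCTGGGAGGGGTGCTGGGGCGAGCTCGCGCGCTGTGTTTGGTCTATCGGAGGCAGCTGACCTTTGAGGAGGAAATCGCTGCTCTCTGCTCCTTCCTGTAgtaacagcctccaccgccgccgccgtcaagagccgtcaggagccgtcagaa

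Stat5b internal promoter (chr11:100822521-100822820, minus strand): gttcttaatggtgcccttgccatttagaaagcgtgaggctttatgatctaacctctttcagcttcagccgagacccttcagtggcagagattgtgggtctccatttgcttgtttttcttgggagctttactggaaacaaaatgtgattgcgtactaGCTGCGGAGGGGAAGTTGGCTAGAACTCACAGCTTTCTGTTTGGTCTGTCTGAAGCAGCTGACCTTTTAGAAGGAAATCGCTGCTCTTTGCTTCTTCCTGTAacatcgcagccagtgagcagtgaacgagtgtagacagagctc

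Macrophages of both genotypes had an open start at 5 of the 6 genes. Stat2, Stat3, Stat5a, Stat5b and Stat6 each had a listed start inside a region called in all 4 libraries, and Stat5b had 2 such starts. Over all protein-coding genes with a listed start the share was 51.6%. Counted by start, all 4 libraries called 6 of the 9, where the share over all listed starts was 48.8%. Neither start of Stat4 lay in a peak of any library. Where peaks had to cover at least 50% of a merged region to count, 3 of the 6 genes kept a called start. The share over all genes was not recomputed for that rule. The plot of start peaks by library shows the 6 called starts.

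**Figure D1:**
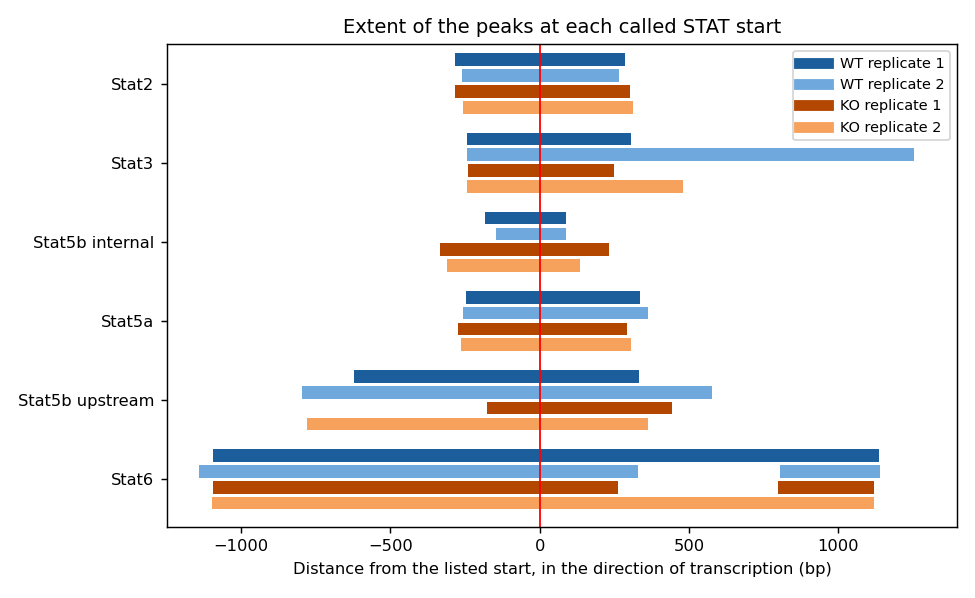
Horizontal bars show the extent of each library's peak around the 6 called STAT starts, in bp from the listed start (red line, negative values upstream), with blue for WT and orange for KO. Stat2 and Stat5a have nearly equal bars in all 4 libraries, Stat3 has equal upstream edges but a long downstream arm in WT replicate 2, and Stat6 is split downstream in WT replicate 2 and KO replicate 1.

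The strength of a peak is given as the percentile of its deposited fold value (the mean enrichment of the peak over background) within its own list. Stat2 had the strongest start. Its region, chr10:128270215-128270810, also reaches an end of the neighbouring gene Apof, which encodes apolipoprotein F. The fold values were 8.63 and 7.92 in WT against 8.29 and 8.76 in KO, at percentiles 98.3, 97.0, 95.8 and 98.2 in the same order. All 4 libraries thus placed this peak near the top of their lists, and the genotypes overlapped. Peak widths were 570 and 525 bp in WT against 588 and 571 bp in KO. Both KO peaks were thus wider than both WT peaks, but 571 against 570 bp is a near tie.

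The Stat2 promoter holds 1 match to the ISRE core (GAAA, any 2 bases and GAAA again, searched on both strands), which lies from 222 to 213 bases before the start, at chr10:128270276-128270285. Of all 32851 listed promoters, 3.44% hold such a match. In the 4 libraries the match lay inside the start peak, between 36 and 61 bp from its upstream edge. The Stat2 promoter also has 2 CCAAT boxes (CCAAT) and 2 GC boxes (GGGCGG), motifs found in 37.4% and 35.7% of promoters. The internal Stat4 promoter has a match to the same ISRE core, 97 to 88 bases before its start, and no peak covered any of its 300 bases in any library. A match of letters does not show binding. The other motifs searched on both strands were the GAS element (TTC, any 3 bases, GAA), AP-1 (TGANTCA), the TATA box (TATAAA) and the PU.1 core, present in 8.30%, 7.81%, 13.6% and 3.20% of promoters. None of these 4 matched any of the 9 member promoters, and no match overlapped another.

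The Stat3 start, chr11:100938284-100939784, ranked next. Percentiles were 92.1 and 77.9 in WT against 96.9 and 83.8 in KO, which overlap. The upstream edge of the peak was placed at 240 to 244 bp before the start in all 4 libraries, a range of 4 bp. The downstream edge ranged from 250 to 1256 bp after the start. Widths were 550 and 1499 bp in WT against 491 and 724 bp in KO, the longest arm being that of WT replicate 2. Its 300-base promoter holds a GC box and 2 CCAAT boxes.

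Stat5a and Stat5b encode closely related proteins and lie next to each other on chromosome 11. The called Stat5a start, chr11:100860210-100860846, had percentiles of 61.5 and 67.3 in WT against 66.3 and 77.4 in KO. Its widths were 582 and 619 bp in WT against 569 and 572 bp in KO. WT peaks were wider than KO peaks in both libraries, while the ranks overlapped. A further Stat5a start listed upstream at position 100859656 lay 554 bp outside this region and in no peak.

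Stat5b had open chromatin at 2 starts that differ in sequence. The upstream promoter, in the region chr11:100850005-100851378, has a GC content of 82.7% with 50 CpG pairs in 300 bases, against medians of 52.7% and 7 over all promoters, and holds 3 GC boxes. The internal promoter, further along the gene in the region chr11:100822339-100822905, has a GC content of 47.3%, 7 CpG pairs and none of the 7 motifs searched.

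The internal Stat5b promoter resembles that of Stat5a more than any other pair among the 9 member promoters do. A local alignment joined 104 columns, of which 83 (79.8%) were identical, and the longest shared run was 16 bases (AGGAAATCGCTGCTCT). No other pair shared a run of more than 11 bases. The aligned stretch, chr11:100860381-100860482 at Stat5a and chr11:100822563-100822664 at Stat5b, lay inside the start peak in all 4 libraries at both genes. This comparison was made after the sequences were seen. How the authors placed reads that match both copies is not known here.

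The 2 Stat5b starts moved differently between the libraries. At the upstream start, percentiles were 56.5 and 46.2 in WT against 72.3 and 65.1 in KO, so both KO libraries ranked it above both WT libraries, by 17.4 points on average (SD 7.25 in WT and 5.12 in KO, n = 2 each). The peak there spanned 957 and 1374 bp in WT against 620 and 1144 bp in KO, which overlap. At the internal start, percentiles were 75.5 and 88.3 in WT against 85.7 and 63.1 in KO, with no order between genotypes. Here the widths did not overlap, at 274 and 234 bp in WT against 567 and 448 bp in KO. The 300-base internal promoter was covered over 234 and 195 bases in WT and over all 300 in both KO libraries.

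Stat6 had the widest region of the family. Its start region, chr10:127641843-127644126, spanned 2284 bp and was wider than 99.8% of regions called in all 4 libraries, yet it ranked low, at percentiles 28.7 and 40.6 in WT against 31.5 and 30.1 in KO. The fold is an average over the peak, so a wide peak and a narrow one are not compared at their summits. WT replicate 1 and KO replicate 2 had a single peak of 2235 and 2221 bp. WT replicate 2 and KO replicate 1 had 2 peaks, separated by gaps of 476 and 535 bp that began 329 and 262 bp after the start. Each form was thus seen in 1 library of each genotype. The Stat6 promoter holds none of the 7 motifs.

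Neighbours in the order of start ranks overlapped, except at its lower end. By mean percentile over the 4 libraries the order was Stat2 (97.3), Stat3 (87.7), Stat5b internal (78.2), Stat5a (68.1), Stat5b upstream (60.0) and Stat6 (32.7). Every adjacent pair overlapped in its 4 values down to the upstream Stat5b start, whose lowest value of 46.2 was above the highest Stat6 value of 40.6.

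**Figure D2:**
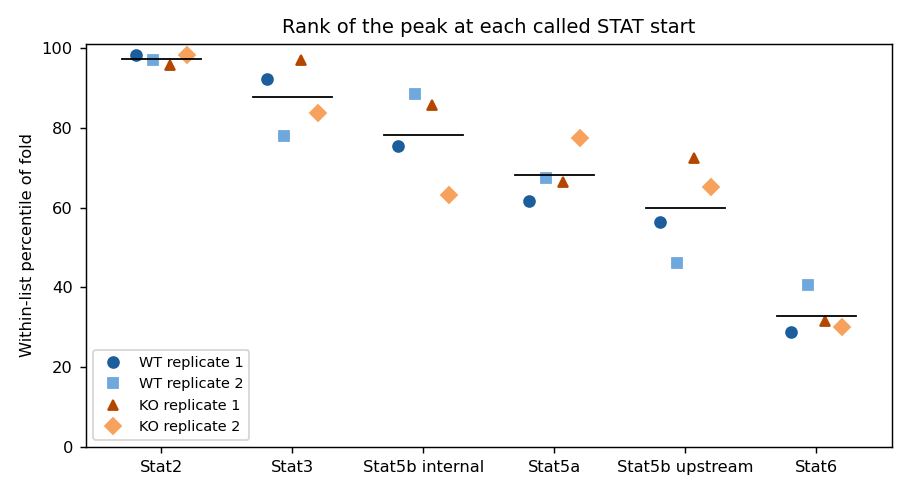
Points show the within-list percentile of fold (0 to 100) of the peak at each called STAT start in the 4 libraries, and lines the mean of the 4. Starts are ordered by that mean, from Stat2 at 97.3 to Stat6 at 32.7, and only at the upstream Stat5b start do both KO points lie above both WT points.

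Along chromosome 11, Stat5b (100780731 to 100859004), Stat5a (100859351 to 100885169) and Stat3 (100886806 to 100939594) follow each other with 346 and 1636 bp between their annotated ends. Their 158864 bp held 14 regions, 10 of them called in all 4 libraries. Stat5b had 9 regions, Stat5a 1 and Stat3 4. The gaps on either side of the Stat3 region that follows Stat5a, of 32625 and 33559 bp, were the longest in the cluster, where the median gap was 6300 bp. Beyond its start region the body of Stat5a had no peak in any library.

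**Figure D3:**
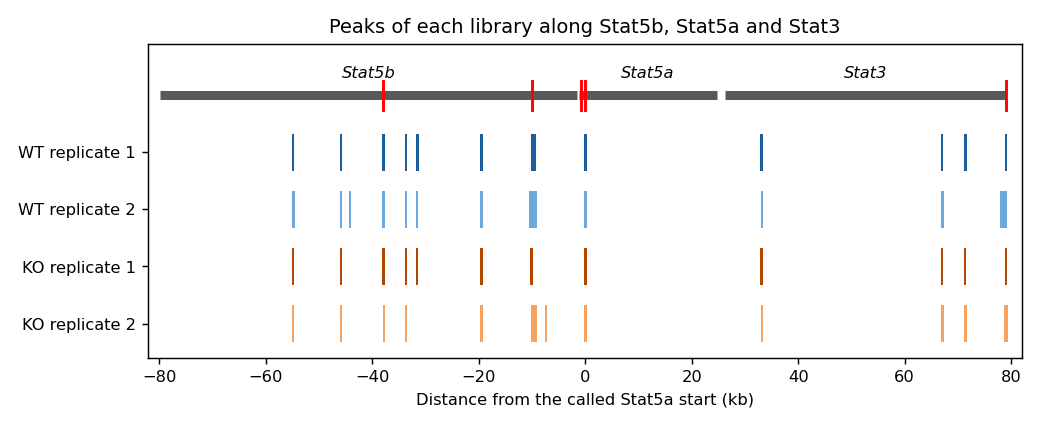
Peaks of each library (blue WT, orange KO) are drawn along the Stat5b, Stat5a and Stat3 genes (grey bars, listed starts in red), in kb from the called Stat5a start, with peaks narrower than 0.45 kb drawn at that width. Stat5b carries 9 of the 14 regions and Stat5a 1, with a long gap on either side of the Stat3 region next to it.

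That isolated Stat3 region, chr11:100893472-100893779, lies inside Stat3, 45761 bp downstream of its start, and ranked with the Stat2 start at the top of the family. Percentiles were 99.8 and 98.1 in WT against 94.6 and 96.6 in KO. In WT these were above the Stat2 start library by library, and in KO below it. Both WT libraries ranked it above both KO libraries, with a KO minus WT difference of -3.37 points (SD 1.25 in WT and 1.44 in KO, n = 2 each). Its peaks were narrow, at 223 and 248 bp in WT against 272 and 246 bp in KO. A further Stat3 region 11888 bp from the start, chr11:100927339-100927652, had percentiles of 74.7 and 53.5 in WT against 36.3 and 50.8 in KO. It too ranked higher in both WT libraries, a difference of -20.6 points with an SD of 14.9 in WT and 10.3 in KO. The remaining Stat3 region, 7557 bp from the start, was called in all libraries except WT replicate 2.

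Stat5b regions away from its starts showed little order by genotype. The region nearest its 3′ end, chr11:100805381-100805923, had percentiles of 83.5 and 82.8 in WT against 72.2 and 79.0 in KO, a difference of -7.58 points. The other 3 regions of Stat5b that were called in all 4 libraries and hold no listed start overlapped between genotypes. Stat5b regions called in 1 library were a 264 bp region in WT replicate 2 and a 119 bp region in KO replicate 2, and a 245 bp region was absent from KO replicate 2 alone.

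Stat4 had the most regions, 10, with none at a start. Over its 120084 bp the regions inside the gene came to 0.749 per 10 kb, above 0.387 for Stat5a, close to 0.758 for Stat3 and below 1.11 for Stat6, 1.15 for Stat5b and 1.34 for Stat2. The upstream start was 11433 bp from the nearest region and the internal start 2710 bp. All 4 Stat4 regions called in every library lay in the 5′ part of the gene, from chr1:52004194-52004469 to chr1:52022041-52022719, on both sides of the internal start. The remaining 6 were called in 1 to 3 libraries.

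**Figure D4:**
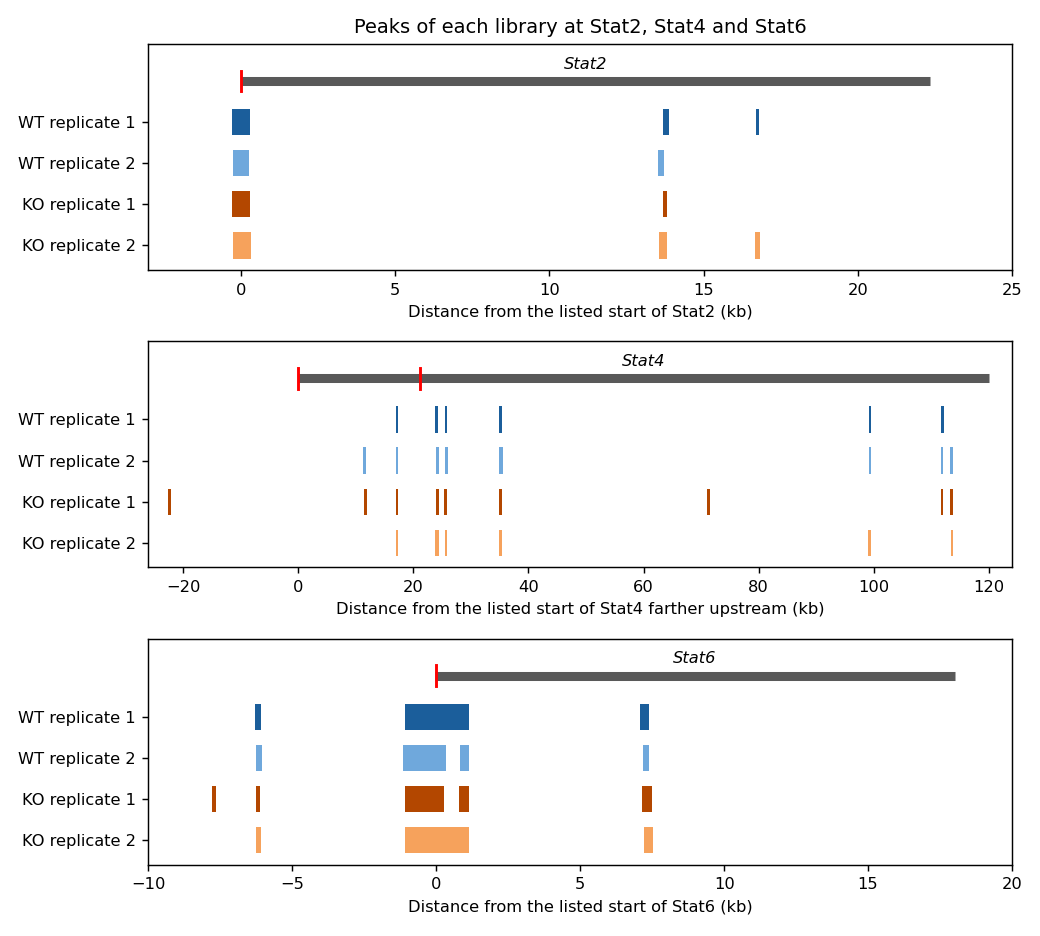
Peaks of each library (blue WT, orange KO) are drawn along Stat2, Stat4 and Stat6 (grey bars, listed starts in red), in kb from the listed start and, for Stat4, from the start farther upstream, with very narrow peaks widened to 0.3% of the axis. Stat2 and Stat6 have a peak on their start in every library, while both Stat4 starts are bare and its 4 regions called in every library sit around the internal start.

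The widest and strongest Stat4 region was chr1:52022041-52022719, at percentiles 80.2 and 82.6 in WT against 85.3 and 84.7 in KO. KO ranks were higher in both libraries, by 3.65 points, but WT peaks were wider, at 595 and 675 bp against 475 and 538 bp. At chr1:52012427-52013031 both measures were higher in KO. Percentiles there were 14.6 and 16.6 in WT against 29.1 and 43.0 in KO, and widths 253 and 154 bp in WT against 547 and 343 bp in KO. At chr1:52004194-52004469 the order was the reverse, with percentiles of 55.2 and 82.5 in WT against 49.7 and 44.0 in KO, a difference of -22.0 points where the SD in WT was 19.2. The region between these, chr1:52010950-52011542, had percentiles of 25.8 and 48.0 in WT against 50.1 and 35.0 in KO, which overlap.

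Away from their starts, Stat2 and Stat6 had few regions. Stat2 had a weak region inside the gene, 13520 bp from its start, at percentiles no higher than 17.0 in WT and 17.8 in KO, and another called in WT replicate 1 and KO replicate 2. Stat6 had a region 6066 bp upstream, chr10:127636689-127636920, with percentiles of 53.2 and 34.5 in WT against 60.9 and 58.7 in KO. KO libraries ranked it higher by 16.0 points (SD 13.2 in WT and 1.59 in KO), while the WT peaks were wider, at 206 and 205 bp against 156 and 185 bp. A 158 bp region 7645 bp upstream of Stat6 was called in KO replicate 1 alone. A Stat6 region inside the gene, 7064 bp from the start, overlapped between genotypes at percentiles from 64.9 to 75.8.

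No region of the family was called in both libraries of 1 genotype and in neither of the other. Of 31 regions, 19 (61.3%) were called in all 4 libraries, 5 in 3, 2 in 2 and 5 in 1, against 57.8% called in all 4 over all regions. KO-only regions made up 1.47% and WT-only regions 2.03% of all regions. With the weakest 25% of each list removed, 1 KO-only and 1 WT-only region appeared. Shares over all regions were not recomputed for that setting. The 12 regions not called everywhere were 113 to 375 bp wide, and their peaks stood at percentiles from 1.46 to 56.2.

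Ranks that separated the genotypes went in both directions. Among the 19 shared regions, 4 ranked higher in both KO libraries (2 at Stat4, 1 each at Stat5b and Stat6) and 4 higher in both WT libraries (2 at Stat3, 1 each at Stat4 and Stat5b), which is 21.1% each. Over all 53062 shared regions the shares were 16.9% and 18.2%. Both KO peaks were wider at 3 STAT regions (the Stat2 start, the internal Stat5b start and 1 Stat4 region) and both WT peaks at 3 (the Stat5a start, Stat4 and Stat6), 15.8% each, against 16.2% and 16.9% over all shared regions. These counts are near the background. The balance of ranks shifted with the library left out. Without WT replicate 2, 10 regions ranked higher in KO and 5 in WT, and without WT replicate 1 the counts were 5 and 9. Without KO replicate 1 they were 7 and 8, and without KO replicate 2 they were 7 and 7. Regions separate more easily with 1 library against 2, and the shares over all shared regions were not recomputed for these counts. An exact two-sided test of 2 against 2 libraries cannot give a p below 0.333, so none was run.

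**Figure D5:**
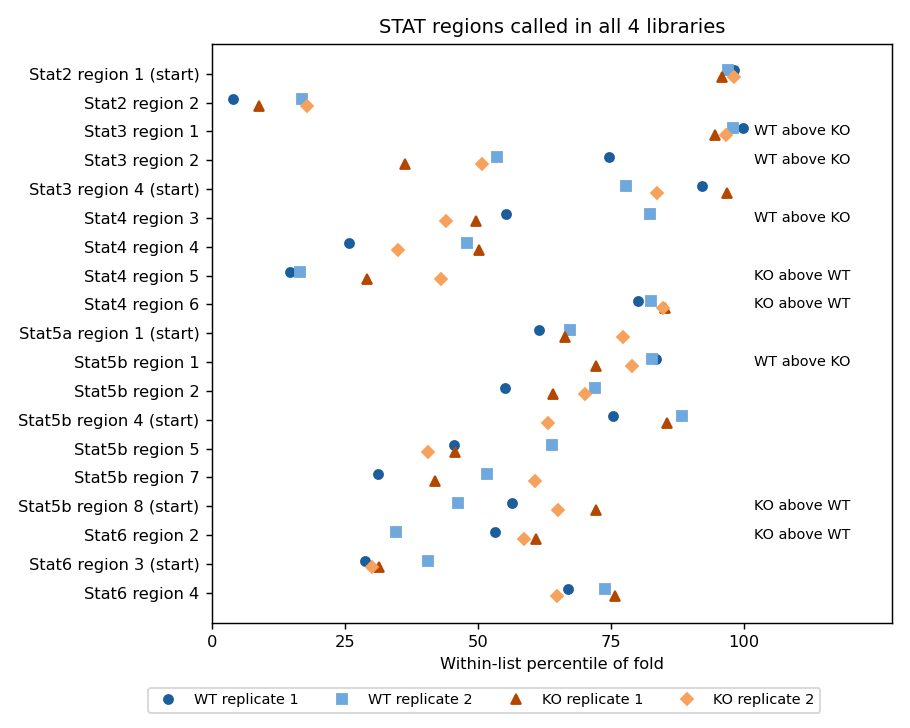
Points show the within-list percentile of fold in each library for the 19 STAT regions called in all 4, numbered by position within each gene, with WT in blue and KO in orange. Labels at the right mark the 4 regions where both KO points lie above both WT points and the 4 where the reverse holds.

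The median rank difference, KO minus WT, was 2.87 points over the 19 regions, against -0.211 over all shared regions. It was positive at 10 and negative at 9, and ranged from -22.0 at Stat4 to 20.5 at Stat4. The sign of the median turned without WT replicate 1 (-3.59) and without KO replicate 1 (-1.56), and also with −log10 q of at least 3 or without the weakest 25% of each list (-0.0698 each). Sequence under STAT peaks added up to 10104 and 11153 bp in WT against 9813 and 10444 bp in KO. The means of 10629 ± 742 and 10129 ± 446 bp (SD, n = 2 each) gave a KO minus WT difference of -500.0 bp, smaller than the SD in WT. Without WT replicate 2 it was 24.5 bp.

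By gene, the covered sequence overlapped between genotypes at Stat2, Stat3, Stat4, Stat5b and Stat6. Stat5a, with its single region, had 582 and 619 bp in WT against 569 and 572 bp in KO, which did not overlap. These are the widths of its start region again, and the nearest values, 572 and 582 bp, lie close together. The share of all genes without overlap was not computed. As a percentage of gene length under peaks, which allows genes to be compared, Stat6 was highest at 6.65 ± 2.30% in WT and 6.69 ± 2.09% in KO, and Stat5b followed at 3.86 ± 0.403% and 3.52 ± 0.287% (SD, n = 2 each). Stat2 stood at 2.34 ± 0.351% and 2.64 ± 1.07%, Stat3 at 2.61 ± 0.915% and 2.04 ± 0.201%, Stat5a at 2.33 ± 0.101% and 2.21 ± 0.00822%, and Stat4 at 1.79 ± 0.329% and 1.75 ± 0.266%. The median over all protein-coding genes was 1.63%. By mean over the 4 libraries the order was Stat6, Stat5b, Stat2, Stat3, Stat5a and Stat4. Every Stat6 value lay above every Stat5b value and every Stat5a value above every Stat4 value, while the other neighbours in this order overlapped.

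Genes of like length whose body coverage across the 4 libraries was closest to a member's were Gpat4 and Zfp346 for Stat2, Vapb and Dip2a for Stat3, Fam120a and Acsl4 for Stat4, Lix1l and Canx for Stat5a, Acbd5 and Pcnx for Stat5b, and Sav1 and Mrpl21 for Stat6. The mean absolute difference over the 4 libraries ran from 0.0296 percentage points for Lix1l to 0.615 points for Mrpl21. Stat6, with the highest coverage, had the least close matches.

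The rest of the pathway was examined with a list of 50 genes. All 4 kinases, Jak1, Jak2, Jak3 and Tyk2, had a listed start in a region called in all 4 libraries, as did Irf9, the partner of Stat2, where the share over all protein-coding genes with a listed start was 51.6%. Among inhibitors, which include the feedback proteins Cish and Socs1 and phosphatases such as Ptpn6, all 10 genes with a listed start did. For the 28 receptor genes, a list that also holds the ligand Tslp, the count was 16 of 22. Ifnar1, Ifngr1, Il4ra and Il6st, which receive interferons, interleukin-4 and the interleukin-6 family, were among the 16. Osmr, Prlr, Epor and Lepr had no peak at a listed start in any library.

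Regions of 1 genotype only were also counted along the pathway, where the shares over all regions were 1.47% KO-only and 2.03% WT-only. The kinases had 32 regions, of which 1 inside Jak1 was KO-only (281 bp, percentiles 12.8 and 6.93). Receptors had 169 regions with 3 KO-only, at Csf2rb (2) and near Ifnar2, and 3 WT-only, at Il3ra and Il21r and near Lifr. Csf2rb, the shared chain of the GM-CSF receptor that signals through Stat5, had its wider KO-only region of 1209 bp 487 bp outside the gene, with peaks of 1091 and 338 bp at percentiles 4.83 and 11.7. Inhibitors had 119 regions with 1 KO-only, near Ptpn11, and 2 WT-only, at Ptpn2 and near Socs6. Shared regions ranked higher in both KO libraries numbered 4 of 20 for kinases, 27 of 107 for receptors (25.2%) and 14 of 85 for inhibitors (16.5%), and those higher in both WT libraries 3, 13 (12.1%) and 11 (12.9%), against the 16.9% and 18.2% over all shared regions. Median differences were 3.81, 1.30 and 0.0168 points. The Jak1 locus held all 4 of the kinase regions that ranked higher in KO, and also 10 of the 20 shared kinase regions.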

How the data were processed

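The assay was ATAC-seq with paired 150 bp reads, in 2 WT and 2 KO libraries. The submitters' processing notes name fastp, Bowtie2, MACS2 and mm10; for versions, read shifting and filters, the sources used here give nothing. The authors deposited 1 broad peak list per library, replicates not pooled. By the broadPeak layout, the deposited columns hold a whole-number score, a fold (ratio over local background) and the −log10 p and −log10 q of each peak, that is, its p-value and q-value.

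Lists were merged at 1 bp overlap and placed with RefSeq's GRCm38.p6 gene table, and a region inside 2 genes counted for both. Where a library had several peaks in a region, widths were summed and percentiles of fold weighted by width. Regions were named if at a start, widest, strongest, or separated by genotype. Likeness was measured against genes of 0.5 to 2 times a member's length. Promoters were aligned locally (match 2, mismatch -3, gap -5 to open and -2 to extend, Biopython 1.88). Scripts ran in Python 3.11.15 with pandas 2.3.3 and were tested on simulated peak lists. Members, lists and alternatives were chosen with earlier results of these data known. Alternatives used another assignment, window, q-value, strength, coverage or rank, left out a library or compared same-numbered libraries.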

Additional observations from a re-analysis of the deposited data

How the results depend on the processing

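Of 107 recomputed values for the family, 73 stayed within 1.5 times the reported count or within the spread between libraries. Where peaks had to cover 50% of a region, 9 regions counted as called in all 4 libraries and 2 as KO-only, 3 genes had a called start, 2 regions ranked higher in KO and 2 in WT, and 1 was wider in KO. Fewer regions qualify by construction, and the shares over all regions and genes were not recomputed for this rule. Keeping peaks with −log10 q of at least 3 gave 1 KO-only and 1 WT-only region where the main setting had 0 of each. Removing the weakest 25% did the same, and shares over all regions were not recomputed for either filter. Each library was also left out in turn, so that 1 library then stood for its genotype. Regions of 1 genotype and separated regions then arise more easily, and their shares over all regions were not recomputed. Leaving out a library gave 1 to 3 KO-only and 0 to 2 WT-only regions. Regions ranked higher numbered 5 to 10 in KO and 5 to 9 in WT, and wider regions 5 to 8 in KO and 6 to 9 in WT. The median rank difference then ran from -3.59 to 2.73 points and the difference in covered sequence from -1024.5 to 24.5 bp. Of 243 values for single genes and regions, 236 stayed within these limits. No region whose ranks separated the genotypes changed direction under any alternative that gave a value, but this was largely fixed in advance. Leaving out a library cannot reverse such a region, and the filters kept each peak's original percentile. Among the alternatives, only the ranks of −log10 q could have reversed a direction. Regions separated by width were not recomputed singly. Same-numbered libraries were also compared in pairs, a comparison added after seeing the data. Both differences favoured KO in rank at 8 of the 19 shared STAT regions (42.1%) and WT at 4 (21.1%). In width, both favoured KO at 4 (21.1%) and WT at 6 (31.6%). Over all shared regions the shares were 24.9% and 26.9% by rank and 24.6% and 25.7% by width. The labels do not say that a number marks a shared source, and the rank deviations of same-numbered libraries correlated at 0.00751 across 53062 shared regions, which are not independent. The depth is unknown, so a region missing from a list cannot be told apart from one that was not detected.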
